A study of Mus musculus with 25 samples.

Results

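Interferon-stimulated genes are genes that cells switch on when they sense interferon, and 39 of them, listed by name, are described here across 6 groups of mouse liver. The platform annotation paired 35 of the 39 with a probe set of 1 gene, and 33 of these passed the filter on dim genes and were tested among 15951 genes. Dhx58 and Mx1 were measured but dim, at a mean log2 value of 3.23 and 2.69. Isg15, Igtp and Gbp2 lay only on probe sets shared by several genes, and Ifi44 was not in the probe table used here, so these 4 have no value below.

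RNA of frozen liver was measured on 25 single-colour Affymetrix mouse arrays, and the values are log2 signals after robust multi-array averaging (RMA). The mice, of strain FVB;129, carried Cre recombinase driven in hepatocytes by the albumin promoter, with loxP sites in the p53 gene (p53KO), the Rb gene (RbKO) or both (DKO). Mice without either deletion are called WT, and the labels do not say whether they carried Cre. At the age of 14 days, mice received a single intraperitoneal dose of 20 mg/kg diethylnitrosamine (DEN), a liver carcinogen whose products alkylate DNA, and livers were taken after 24 h. The arrays hold livers after DEN of 5 WT, 5 p53KO, 4 RbKO and 5 DKO samples, and livers of 3 WT and 3 DKO samples that are untreated by their labels, where the series text speaks of saline. The untreated samples are entered at an age of 14 days, a dose of 0 and a time of 0 h. By these entries, DEN against untreated is not matched for the 24 h after dosing. A deletion by this Cre leaves both genes in the other cells of the liver, such as Kupffer cells and endothelium. The labels do not say that the arrays of a group came from separate animals, so p-values reflect only the spread of these samples, which may be technical, and the number of arrays limits the precision of every value.

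Cells make interferon after pattern-recognition receptors meet foreign or misplaced nucleic acid. Type I interferon binds its receptor, the kinases Jak1 and Tyk2 are activated, and a complex that holds Stat2 and Irf9 binds the interferon-stimulated response element (ISRE) of target promoters. Interferon gamma acts through another element, the gamma-activated sequence (GAS). The targets include sensors that raise the response, enzymes that block viral RNA, GTPases that attack intracellular microbes, and chemokines that draw T cells. In liver, both hepatocytes and the resident immune cells respond to interferon.

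A RefSeq promoter window (250 bases before to 50 after the start site, GRCm38.p6) was found for 28 of the 39 members. The core of the ISRE, written GAAANNGAAA and searched on both strands, was in the window of 16 of these 28 (57.1%), against 3.99% of the 27025 genes with a window. The GAS letters, TTCNNNGAA, which read the same on both strands, were in 8 of the 28 (28.6%), against 9.55% of all genes with a window. By role, the ISRE core was in the window of 4 of 4 interferon-inducible GTPases, 5 of 8 RNA-binding effectors and 2 of 2 sensors with a window, and in 1 of 4 transcription factors. The bases before the start site are printed here for the 4 members with a window that passed the tests below in most comparisons (ties by the smallest p), so that the elements can be seen beside the values. Capitals mark a match to either motif, and all 4 run 5′ to 3′ toward the start site.
Ifit3 (chr19:34583279-34583528, plus strand): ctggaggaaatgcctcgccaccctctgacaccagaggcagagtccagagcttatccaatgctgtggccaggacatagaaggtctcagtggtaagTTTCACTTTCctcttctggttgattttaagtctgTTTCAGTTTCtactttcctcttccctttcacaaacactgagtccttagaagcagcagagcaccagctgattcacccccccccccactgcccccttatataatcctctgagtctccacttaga
Bst2 (chr8:71537473-71537722, minus strand): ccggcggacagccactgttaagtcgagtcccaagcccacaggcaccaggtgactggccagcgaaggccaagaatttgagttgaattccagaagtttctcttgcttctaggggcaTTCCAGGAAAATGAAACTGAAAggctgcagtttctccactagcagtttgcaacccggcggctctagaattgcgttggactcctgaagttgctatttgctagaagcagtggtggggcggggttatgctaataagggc
Ifi35 (chr11:101448162-101448411, plus strand): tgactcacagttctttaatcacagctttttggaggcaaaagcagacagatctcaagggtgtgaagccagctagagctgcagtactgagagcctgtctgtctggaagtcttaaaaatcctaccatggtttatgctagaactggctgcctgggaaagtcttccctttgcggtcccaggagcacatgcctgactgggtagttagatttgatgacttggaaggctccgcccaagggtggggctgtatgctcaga
Ifit1 (chr19:34640639-34640888, plus strand): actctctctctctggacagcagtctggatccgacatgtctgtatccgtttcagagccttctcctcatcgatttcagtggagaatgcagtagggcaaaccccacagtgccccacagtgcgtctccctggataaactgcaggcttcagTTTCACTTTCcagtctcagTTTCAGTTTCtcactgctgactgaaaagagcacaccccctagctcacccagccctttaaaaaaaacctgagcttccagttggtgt
The windows of Ifit3 and Ifit1, neighbours on chromosome 19, each held 2 ISRE cores, at -156 and -122 in Ifit3 and at -104 and -85 in Ifit1, counted from the start site to the first base of the match. In Bst2 a GAS match at -136 ran into 2 overlapping ISRE cores at -130 and -124. Ifi35 held no ISRE core in its window, and its 1 GAS match lay after the start site, at 7 to 15, outside the printed bases. These are matches of letters, and binding was not measured.

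By their names and order of deposit the arrays were put into 3 sets, and only set 1, with 16 arrays, holds all groups. The names of set 2 start with R. Those of set 3 have the form of set 1 and in part repeat its numbers, so the split of set 3 from set 1 is inferred. Set 2 (1 untreated WT, 2 DEN WT and 1 DEN RbKO array) stood apart from the rest, with a mean of 46.6 on the first principal component, which carried 25.8% of the variance, against -11.8 in set 1 and 0.641 in set 3 (3 DEN p53KO and 2 DEN DKO arrays). The fit therefore holds a term for the set, and values within a set are given beside part of the fitted ones. The Rb1 probe set, which averages probes along a transcript of which Cre removes only a part, is no check of the deletion. It was called in 0 of 9 comparisons and lay between 4.76 and 5.02 in untreated DKO and between 5.30 and 5.76 in untreated WT. After DEN it lay between 5.55 and 6.28 in RbKO, 5.18 and 5.82 in DKO and 5.04 and 6.02 in WT. The labelled tissue was read from 7 hepatocyte markers, among them albumin, whose summed linear signal lay between 20310 and 27450 on all arrays. In lists of arrays below, values follow the replicate number, and set 1 comes first: the third untreated WT, the last 2 DEN WT and the last DEN RbKO array are of set 2, and the last 3 DEN p53KO and last 2 DEN DKO arrays are of set 3.

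The mean over the members was highest in DKO livers after DEN, though the groups overlapped. Averaged over the 33 members tested, the log2 value was 5.32 ± 0.025 (SD, n = 3) in untreated WT, 5.50 ± 0.079 (n = 3) in untreated DKO, 5.61 ± 0.18 (n = 5) in DEN WT, 5.47 ± 0.14 (n = 5) in DEN p53KO, 5.61 ± 0.063 (n = 4) in DEN RbKO and 5.81 ± 0.23 (n = 5) in DEN DKO. The 3 DEN DKO arrays of set 1 averaged 5.98, 5.84 and 6.08, and the 2 of set 3 averaged 5.62 and 5.55. The DEN WT arrays ran from 5.45 to 5.85, and 3 of the 5 DEN DKO arrays lay within that range. These means carry no test. Among the 16 arrays of set 1, 22 of the 33 members had their highest value in a DEN DKO array, 13 of them in replicate 3, 8 in replicate 1 and 1 in replicate 2, where 18.8% of all genes tested had theirs in one of these 3 arrays.

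**Figure D1:**
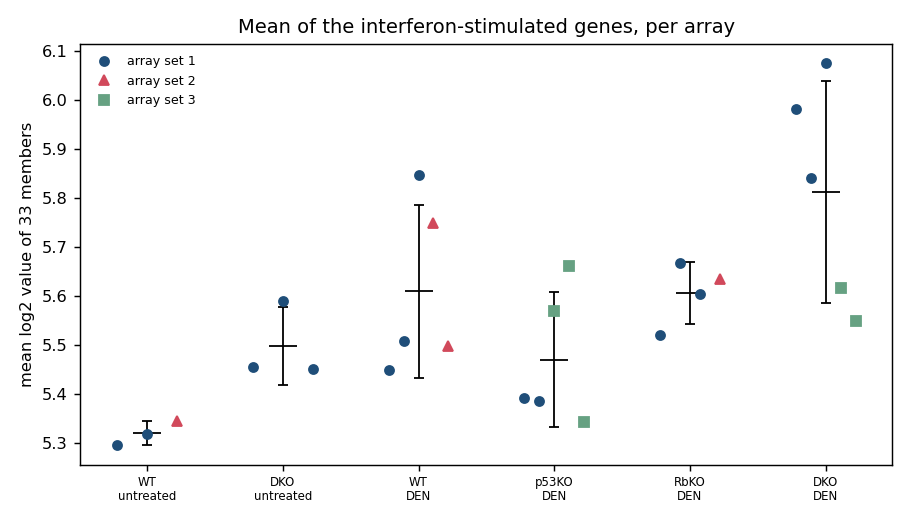
Mean log2 value over the 33 members tested, 1 point per array and by group on the x axis, with the group mean and SD in black and the array set by marker. The DEN DKO arrays of set 1 lie at 5.84 to 6.08, and those of set 3 at 5.55 and 5.62, within the range of the DEN WT arrays.

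The first comparison was DEN against untreated in WT liver. The antiviral gene Ifit3, the GTPase gene Mx2, the membrane tether Bst2, the RNA sensor Ddx58 (RIG-I) and the chemokine Cxcl10 rose. Thus 5 of 33 members were called higher and 0 lower, where 2.08% of all genes tested were called higher and 1.91% lower. A call is a Benjamini-Hochberg adjusted p under 0.05 over all genes tested by limma. The median difference over the members was 0.26 (0.28 within set 1 and 0.26 within set 2), against 0.02 over all genes, and 26 of 33 differences were above 0. Of the 28 members not called, 5 had an unadjusted p under 0.05. Counts by sign or by unadjusted p are given here and below without the share over all genes. The same holds for counts from other fits, or with an array or set left out, unless a share stands beside them. Such counts are therefore no result about a list. The count fell to 1 without untreated WT replicate 1 or 3, to 0 without replicate 2 and to 3 without DEN WT replicate 1, and without set 2 it was 2 (Mx2 and Ifih1).

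In DKO livers, more members passed the test after DEN, and 1 of them, Ifit3, is shared with WT. Ifit3, Ifi27l2a, Ifit1, Parp14, Cxcl9, Oas1a, Gbp3 and Ifih1 rose and Stat2 fell, which made 8 of 33 members called higher and 1 lower, where 4.49% of all genes were called higher and 16.5% lower. The median member difference was 0.35 (0.44 within set 1), against -0.00397 over all genes, and 27 of 33 differences were above 0. Untreated DKO arrays are only in set 1, and that set alone called 16 members higher and 1 lower, and 6.56% of all genes higher and 18.7% lower. Centring of the arrays on their medians moved the median gene by -0.10. With centred arrays, 5 members were called higher and 3 lower, with a median of 0.25. Of the 15951 genes tested, 356 were then called higher and 3563 lower. The share of lower genes among all calls went from 78.6% to 90.9%. The count called higher fell to 4 without untreated DKO replicate 3 or DEN DKO replicate 3 and to 5 without untreated DKO replicate 2, and the call of Stat2 was lost without any 1 of the 3 untreated DKO arrays. In the same livers 7 of 8 endothelial, 5 of 8 stellate and 5 of 8 neutrophil markers fell, with values at the end.

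Whether DKO responded to DEN otherwise than WT was asked by the difference of the 2 responses. By limma, 0 of 33 members were called higher and 0 lower, where 1.36% of all genes were called higher and 8.54% lower, and 6 members had an unadjusted p under 0.05. The median difference was 0.09 (0.10 within set 1), against -0.03 over all genes. It was -0.03 with centred arrays, which moved the median gene by -0.12. The smallest adjusted p were those of Iigp1, at 0.84 (SE 0.28, adjusted p = 0.0551), and Ifi27l2a, at 1.07 (SE 0.37, adjusted p = 0.0679). Without set 2, Trim25 was called lower at -0.57 (adjusted p = 0.0463), and set 1 alone called 2 higher (1.27% of all genes), Gbp3 at 0.85 (adjusted p = 0.0152) and Parp14 at 0.89 (adjusted p = 0.025). Leaving out DEN WT replicate 3 gave 2 calls (Iigp1 and Ifi27l2a), and leaving out untreated WT replicate 2 or DEN DKO replicate 5 gave 1 (Ifi27l2a).

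Before DEN, no member passed the test between DKO and WT livers. By limma, 0 of 33 members were called higher and 0 lower, where 0.865% of all genes were called higher and 0.244% lower (with centred arrays, the share of lower genes among all calls was 10.7% in place of 22%). The median difference was 0.13 (0.18 within set 1), against 0.01 over all genes, and 25 of 33 were above 0. The 4 members with an unadjusted p under 0.05 were all higher in DKO: Cxcl10 by 0.82 (SE 0.30, adjusted p = 0.21), Zbp1 by 0.56 (SE 0.19, adjusted p = 0.174), Ifit2 by 0.51 (SE 0.25, adjusted p = 0.406) and Stat2 by 0.49 (SE 0.20, adjusted p = 0.299). Set 1 alone called 1 member and 3.79% of all genes higher, and the member was Cxcl10, at 0.73 (adjusted p = 0.00623). A fit of these 2 groups alone called Cxcl10, Ifit2 and Ifit3, with Ifit3 at 0.78 (adjusted p = 0.00339). The share of all genes called in that fit is not given here, so its calls are no result about the members as a list.

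After DEN, the loss of p53 or Rb alone was set against WT. In p53KO, Bst2 and Ifi35 fell, so 0 of 33 members were called higher and 2 lower, where 0.708% of all genes were called higher and 1.07% lower (70.6% of all calls were lower with centred arrays and 60.2% in the fit). The median member difference was -0.07 (-0.24 within set 1), against -0.01 over all genes, and 10 of 33 were above 0. In RbKO, Ifit2 and Iigp1 rose and Bst2 fell, so 2 members were called higher and 1 lower, where 5.23% of all genes were called higher and 6.13% lower. The median was 0.06, against -0.04 over all genes, and it was -0.01 within set 1 and 0.11 within set 2. Without set 2, none of these 3 RbKO calls was left. In p53KO, Ifi35 alone was left lower without set 2, where Cxcl10 was called higher at 0.90 (adjusted p = 0.0173), and 1 call lower was left without DEN WT replicate 1 or DEN p53KO replicate 1, and 0 without DEN p53KO replicate 2. For RbKO, the 2 calls higher fell to 0 without DEN WT replicate 5 and to 1 without DEN WT replicate 1 or 4 or DEN RbKO replicate 2 or 4, and the call lower was lost without DEN RbKO replicate 4.

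With both genes lost, Ifi27l2a, Cxcl9, Ifit3, Iigp1, Ifit1 and Gbp3 were higher than in DEN WT and Ifi35 was lower. This is 6 of 33 members called higher and 1 lower, where 2.69% of all genes were called higher and 9.14% lower. The median member difference was 0.15 (0.28 within set 1), against -0.03 over all genes, and 27 of 33 were above 0. Set 1 alone called 11 higher and 1 lower, adding Cxcl10, Ifit2, Oas2, Oasl2 and Parp14, and 2.88% of all genes higher and 7.97% lower. The 6 calls fell to 2 without DEN DKO replicate 1 and to 3 without DEN DKO replicate 3 or DEN WT replicate 1 or 2, and were 4 without set 2.

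DKO was also set against each single deletion after DEN. Against p53KO, Ifit3, Ifi27l2a and the nucleic acid sensor Zbp1 were higher, so 3 of 33 members were called higher and 0 lower, where 0.357% of all genes were called higher and 1.51% lower. The median was 0.28, against -0.04 over all genes. Within set 1 it was 0.50, with 13 members and 2.37% of all genes called higher, and within set 3 it was 0.09. Against RbKO, Ifi27l2a and Ifit3 were higher, 2 of 33 members, with 0 lower, where 0.144% of all genes were called higher and 0.884% lower. The median was 0.24 (0.24 within set 1, which called 8 members and 0.545% of all genes higher), against -0.02 over all genes. Without DEN p53KO replicate 1 the 3 calls fell to 0, without replicate 2 to 1, and without set 2 there were 6. The 2 calls against RbKO fell to 0 without DEN RbKO replicate 1 or DEN DKO replicate 1 and to 1 without DEN RbKO replicate 2, 3 or 4, DEN DKO replicate 2 or 3, or set 2. The comparisons of DKO with WT, p53KO and RbKO share the DEN DKO arrays, and those with DEN WT share the DEN WT arrays.

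**Figure D2:**
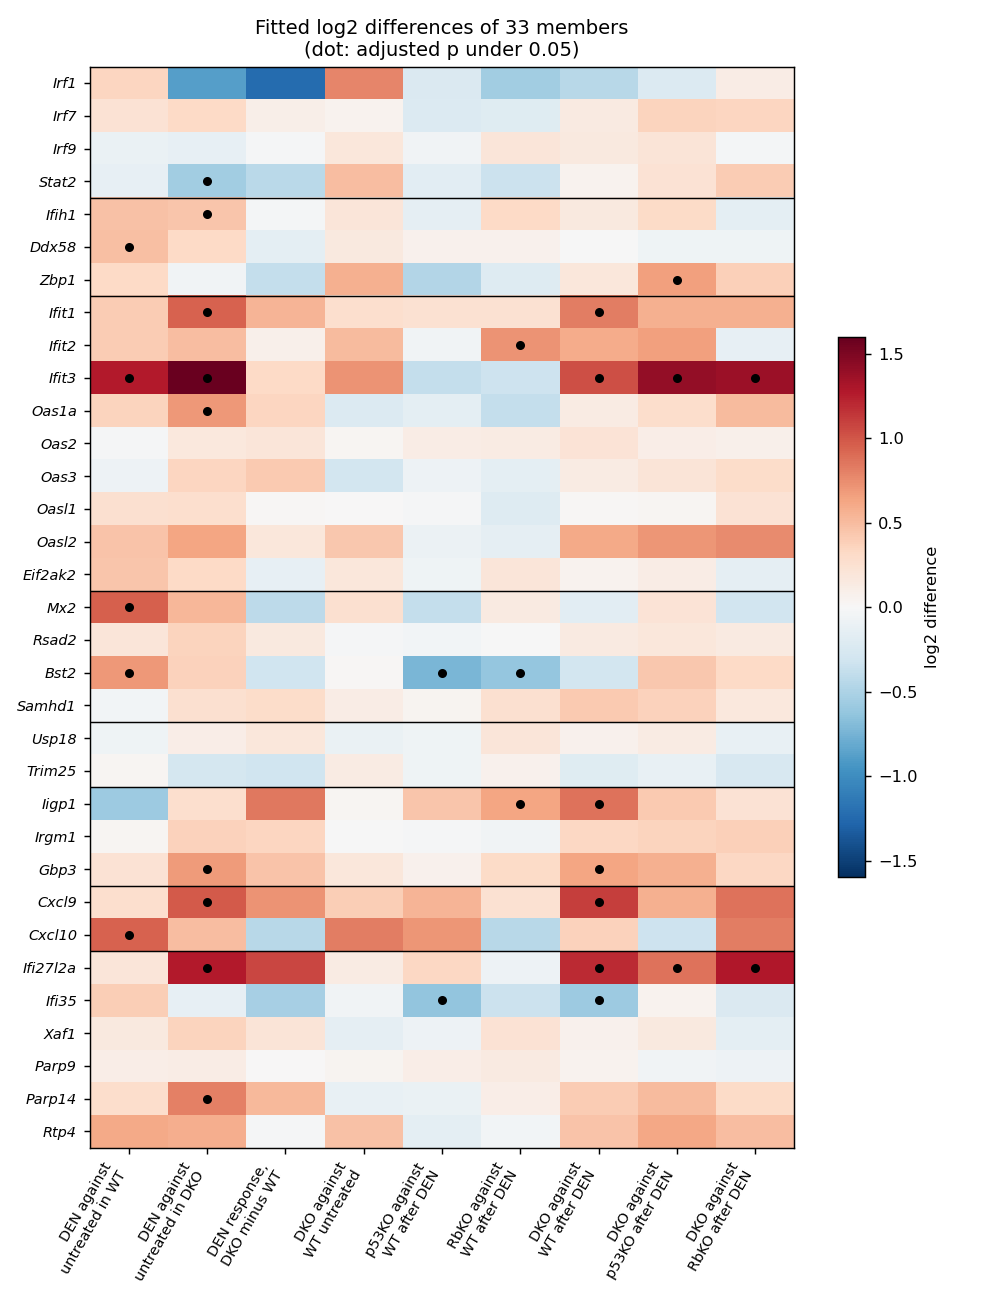
Fitted log2 differences of the 33 members (rows, grouped by role) in the 9 comparisons (columns), red for higher and blue for lower in the first-named group, with a dot where the adjusted p was under 0.05. Ifit3 was called in 5 comparisons, and 0 dots stand in the columns of the DEN response of DKO minus that of WT and of untreated DKO against WT.

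Of the transcription factors, Stat2, a partner of Irf9 in the ISRE-binding complex, was called once. It read 6.42, 6.46 and 6.16 in untreated WT, 6.80, 6.78 and 6.71 in untreated DKO, 5.83, 6.26, 6.20, 6.56 and 6.29 in DEN WT and 6.27, 6.24, 6.62, 5.93 and 5.95 in DEN DKO. The 3 untreated DKO arrays were the highest of these groups and did not overlap the DEN DKO arrays. DEN against untreated in DKO was -0.56 (SE 0.19, adjusted p = 0.0317). The call was lost without any 1 of the untreated DKO arrays, and also in set 1 alone, with Xist as a covariate and in a fit of the compared groups alone, and set 1 gave -0.39. In DEN p53KO Stat2 lay between 5.66 and 6.21 and in DEN RbKO between 5.50 and 6.24. Irf1, which drives interferon gamma targets, was called in 0 comparisons and had 1 array far above all others, DEN WT replicate 4 of set 2: it read 4.59, 4.71, 5.03, 7.28 and 5.54 in DEN WT, against 5.07, 5.96 and 5.76 in untreated DKO and 5.12, 4.46, 4.85, 4.65 and 5.33 in DEN DKO. DEN against untreated in DKO was -0.88 (SE 0.36, adjusted p = 0.0837) for Irf1, and it was called lower at -0.88 without set 2 (adjusted p = 0.00536). Irf7, the regulator of interferon alpha genes, and Irf9 were not called in any comparison, with values from 3.60 to 4.95 and from 4.24 to 4.94.

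Of the sensors of foreign RNA, Ddx58 rose with DEN in WT and Ifih1 in DKO. Ddx58 read 6.54, 6.24 and 6.19 in untreated WT and 7.12, 6.75, 6.83, 6.72 and 6.57 in DEN WT, groups that did not overlap, a difference of 0.49 (SE 0.13, adjusted p = 0.0268). In untreated DKO it read 6.45, 6.63 and 6.53 and in DEN DKO 6.88, 6.81, 7.05, 6.67 and 6.58, a difference of 0.32 (SE 0.13, adjusted p = 0.0873). DEN DKO minus DEN WT was -0.00261 with a 95% interval of -0.26 to 0.25. The WT call of Ddx58 was lost without untreated WT replicate 2 or 3 or DEN WT replicate 1 (differences of 0.41 to 0.57 over the 8 arrays left out in turn), and also without the set term, without set 2, with Xist as a covariate and in a fit of the compared groups alone. Ifih1 (MDA5), which senses long double-stranded RNA, read 6.97, 7.02 and 6.88 in untreated DKO and 7.24, 7.52, 7.77, 7.09 and 7.41 in DEN DKO, again without overlap. Its difference was 0.44 (SE 0.15, adjusted p = 0.0446), and in WT it was 0.47 (SE 0.15, adjusted p = 0.0681), called within set 1 at 0.69 (adjusted p = 0.00303). Ifih1 in DKO was lost without untreated DKO replicate 1, 2 or 3 or DEN DKO replicate 2, 3 or 5 (0.30 to 0.49), and also with arrays centred on their median and with Xist as a covariate. Zbp1, which senses Z-form nucleic acid and can start necroptosis, was called between DKO and p53KO. It read 5.25, 4.99 and 4.92 in untreated WT, 5.36, 5.84 and 5.60 in untreated DKO, 5.32, 5.29, 5.56, 5.12 and 5.59 in DEN WT, 4.58, 4.71, 5.25, 5.44 and 5.11 in DEN p53KO and 5.75, 5.67, 5.68, 5.64 and 5.42 in DEN DKO. The lowest values were the p53KO arrays of set 1, and DEN DKO minus DEN p53KO was 0.66 (SE 0.15, adjusted p = 0.0174), with 1.05 in set 1 and 0.26 in set 3. That call was lost without DEN p53KO replicate 1 or 2 (0.54 to 0.79), and also without the set term. The dim Dhx58 stayed between 2.72 and 3.71 on all arrays.

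Of the Ifit proteins, Ifit1 binds viral RNA that lacks the host's cap marks and blocks its translation. Ifit3, whose promoter is printed above, was called in 5 of the 9 comparisons. It read 4.71, 4.90 and 4.78 in untreated WT, 5.56, 5.63 and 5.56 in untreated DKO and 5.11, 5.71, 7.35, 6.40 and 5.71 in DEN WT. After DEN the arrays of p53KO read 5.28, 5.42, 5.84, 5.55 and 5.22, those of RbKO 5.82, 6.14, 5.80 and 5.25 and those of DKO 7.35, 7.07, 7.90, 6.39 and 6.14. The 2 untreated groups did not overlap, DEN WT replicate 3 and DEN DKO replicate 1 both read 7.35, and all 5 DEN DKO arrays were above all 5 DEN p53KO arrays. DEN against untreated was 1.27 (SE 0.33, adjusted p = 0.0286) in WT and 1.58 (SE 0.35, adjusted p = 0.00197) in DKO, and the difference between these responses was 0.31 (SE 0.48, adjusted p = 0.755). DEN DKO exceeded DEN WT by 1.03 (SE 0.33, adjusted p = 0.0411), DEN p53KO by 1.41 (SE 0.29, adjusted p = 0.0113) and DEN RbKO by 1.36 (SE 0.33, adjusted p = 0.0437). Against p53KO the difference was 2.09 within set 1 and 0.73 within set 3. The DKO response of Ifit3 to DEN was called whichever array was left out (1.32 to 1.67). Its WT response was lost without untreated WT replicate 1, 2 or 3 or DEN WT replicate 3 or 4 (0.92 to 1.56), and also without the set term, in set 1 alone, without set 2, with Xist as a covariate and in a fit of the compared groups alone. The excess over DEN WT was lost without DEN WT replicate 1, 2 or 5 or DEN DKO replicate 1, 2 or 3 (0.67 to 1.46), and also without the set term, without set 2, with Xist as a covariate and in a fit of the compared groups alone. The excess over p53KO was lost without DEN p53KO replicate 1 (1.22 to 1.61). The excess over RbKO was lost without DEN RbKO replicate 1, 2, 3 or 4 or DEN DKO replicate 1, 2 or 3 (1.10 to 1.49), and also without the set term, with the set as a random block and without set 2.

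Ifit1 read 4.02, 4.35 and 3.72 in untreated DKO and 5.32, 4.78, 5.07, 4.67 and 4.51 in DEN DKO, with no overlap, and 4.21, 3.73, 4.91, 4.22 and 3.82 in DEN WT. DEN DKO was above untreated DKO by 0.95 (SE 0.24, adjusted p = 0.00497) and above DEN WT by 0.81 (SE 0.22, adjusted p = 0.0175). The first call held without any 1 array (0.80 to 1.11). The second was lost without DEN WT replicate 2 or DEN DKO replicate 1 (0.66 to 1.08), and also without set 2 and in a fit of the compared groups alone. Ifit2 was called in RbKO against WT: it read 4.24, 4.69, 5.17, 4.25 and 3.92 in DEN WT, 5.36, 5.63, 5.47 and 4.57 in DEN RbKO and 5.62, 4.80, 5.67, 4.82 and 5.12 in DEN DKO. The 3 RbKO arrays of set 1 exceeded all WT arrays, and RbKO minus WT was 0.72 (SE 0.20, adjusted p = 0.0198). That call was lost without DEN WT replicate 1 or 5 or DEN RbKO replicate 2 (0.60 to 0.89), and also without the set term and without set 2. DKO minus WT of Ifit2 was 0.60 (SE 0.21, adjusted p = 0.0659), and DKO minus RbKO was -0.13 with an interval of -0.57 to 0.32.

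The Oas enzymes make 2-5A, the signal that activates RNase L, and Oas1a was the only one of the 5 Oas and Oasl genes called. It read 4.25, 3.68 and 3.94 in untreated DKO and 4.61, 4.41, 5.01, 4.66 and 4.04 in DEN DKO, groups that overlapped, and DEN raised it by 0.69 (SE 0.22, adjusted p = 0.0239). The call was lost without untreated DKO replicate 2 or 3 or DEN DKO replicate 3 (0.56 to 0.84), and also without the set term and with arrays centred on their median. Oasl2 was not called, but set 1 alone called it higher in DEN DKO than in each of the other groups of DEN and in untreated DKO. It read 4.24, 4.54, 5.27, 5.54 and 5.02 in DEN WT, 4.65, 4.11, 4.50, 4.73 and 3.99 in DEN p53KO and 5.79, 5.50, 5.67, 4.69 and 4.38 in DEN DKO. The 3 DEN DKO arrays of set 1 were, with DEN WT replicate 4, its 4 highest, and DKO minus p53KO was 0.70 (SE 0.23, adjusted p = 0.108), with 1.28 in set 1. Oas2, Oas3, Oasl1 and Eif2ak2 (the double-stranded RNA kinase PKR) were not called in any comparison. Of these, Eif2ak2 came closest, at 0.44 (SE 0.13, adjusted p = 0.0564) for DEN in WT.

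**Figure D3:**
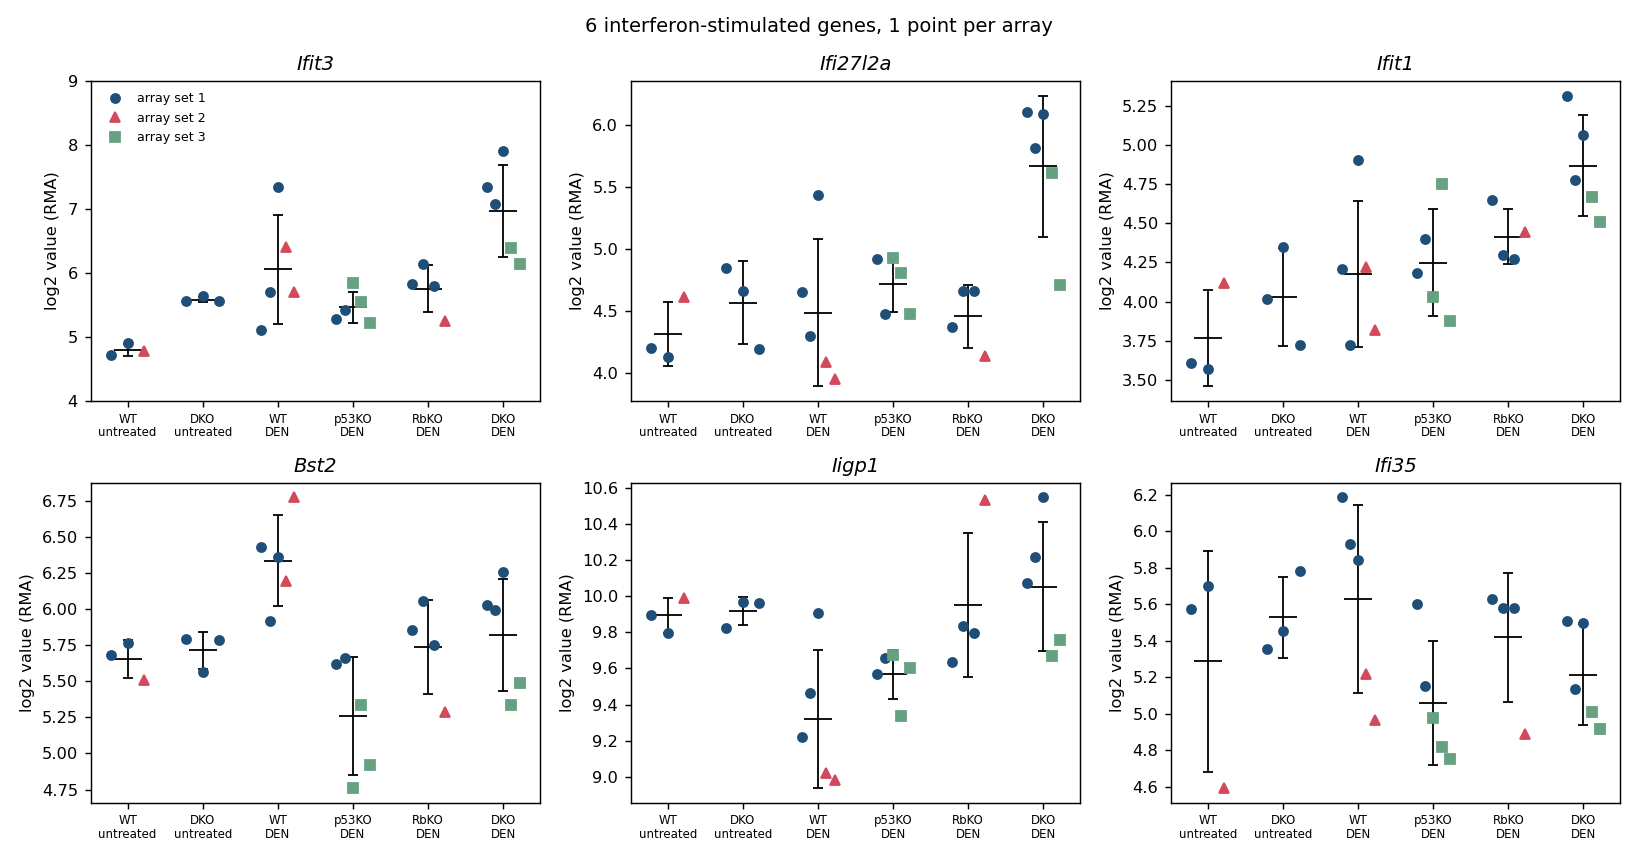
Log2 value of 6 members (1 panel each), 1 point per array and by group on the x axis, with the group mean and SD in black and the array set by marker. By group mean, Ifit3, Ifi27l2a and Ifit1 are highest in DEN DKO, Bst2 is highest and Iigp1 lowest in DEN WT, and Ifi35 is lower in the set 2 array of untreated WT, at 4.59, than in the others, at 5.57 and 5.70.

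Bst2 (tetherin), which holds budding virus at the cell surface and is also a marker of plasmacytoid dendritic cells, rose with DEN in WT and was lower in both single deletions than in WT after DEN. It read 5.69, 5.76 and 5.51 in untreated WT and 6.43, 5.92, 6.36, 6.20 and 6.78 in DEN WT, with no overlap. After DEN the p53KO arrays read 5.62, 5.66, 4.76, 5.33 and 4.92, those of RbKO 5.85, 6.06, 5.75 and 5.29 and those of DKO 6.03, 5.99, 6.26, 5.34 and 5.49. All 5 p53KO arrays were below all 5 WT arrays, and the RbKO and DKO arrays overlapped those of WT. DEN raised it in WT by 0.69 (SE 0.17, adjusted p = 0.0159). After DEN, p53KO minus WT was -0.73 (SE 0.18, adjusted p = 0.0347), RbKO minus WT was -0.61 (SE 0.15, adjusted p = 0.0118) and DKO minus WT was -0.30 (SE 0.16, adjusted p = 0.265), not called. Within set 1 these 3 differences were -0.59, -0.35 and -0.14. The WT response of Bst2 was lost without untreated WT replicate 1, 2 or 3 (0.55 to 0.82), and also without the set term, without set 2 and in a fit of the compared groups alone. The p53KO call was lost without DEN WT replicate 1 or DEN p53KO replicate 1 or 2 (-0.89 to -0.64), and also without set 2 and in a fit of the compared groups alone. The RbKO call was lost without DEN RbKO replicate 4 (-0.75 to -0.41), and also without the set term, in set 1 alone, without set 2 and in a fit of the compared groups alone.

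Mx2, a dynamin-like antiviral GTPase, read 4.42, 4.14 and 4.42 in untreated WT and 5.52, 5.13, 4.99, 6.08 and 4.78 in DEN WT, groups that did not overlap, and DEN raised it by 0.95 (SE 0.25, adjusted p = 0.0306), with 0.93 in set 1 and 1.01 in set 2. In DKO, where the untreated arrays alone ranged from 3.91 to 5.06, the difference was 0.53 (SE 0.27, adjusted p = 0.168). The WT call of Mx2 was lost without untreated WT replicate 1, 2 or 3 or DEN WT replicate 1 or 4 (0.78 to 1.15), and also without the set term, with Xist as a covariate and in a fit of the compared groups alone. Rsad2 (viperin) and Samhd1, which limits the supply of deoxynucleotides, were not called. Samhd1 was nearest, at 0.42 (SE 0.15, adjusted p = 0.0759) for DKO against WT after DEN. The dim Mx1 stayed between 2.48 and 3.13. Of the genes of the ISG15 system, Usp18, which removes ISG15 and damps the receptor, and the ligase Trim25 were called in 0 comparisons, with values of 4.87 to 6.02 and 6.33 to 7.17.

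The interferon-inducible GTPases coat and break the vacuoles of intracellular microbes. Iigp1 read 9.90, 9.80 and 9.99 in untreated WT, 9.83, 9.97 and 9.96 in untreated DKO, 9.22, 9.46, 9.91, 9.02 and 8.98 in DEN WT and 10.07, 10.22, 10.55, 9.67 and 9.76 in DEN DKO. The DEN WT arrays spread below the untreated ones except for replicate 3, while DEN DKO stayed near the untreated level or above it. DEN against untreated was -0.58 (SE 0.19, adjusted p = 0.0929) in WT and 0.26 (SE 0.20, adjusted p = 0.384) in DKO. DKO exceeded WT after DEN by 0.87 (SE 0.19, adjusted p = 0.00406), with 0.75 in set 1, a call that held whichever array was left out (0.74 to 1.08) and under all 10 alternatives. RbKO read 9.63, 9.84, 9.79 and 10.53 and exceeded WT by 0.63 (SE 0.18, adjusted p = 0.0224), but by 0.23 within set 1 and 1.53 within set 2. The RbKO call of Iigp1 was lost without DEN WT replicate 4 or 5 or DEN RbKO replicate 4 (0.32 to 0.81), and also without the set term, in set 1 alone, without set 2 and in a fit of the compared groups alone. Gbp3 read 4.52, 4.54 and 4.45 in untreated DKO, 4.23, 4.49, 4.88, 4.85 and 4.66 in DEN WT and 5.40, 5.51, 5.35, 4.92 and 4.93 in DEN DKO. All 5 DEN DKO arrays were above all untreated DKO and DEN WT arrays, by 0.68 (SE 0.20, adjusted p = 0.0176) and 0.64 (SE 0.19, adjusted p = 0.0289). Against p53KO, Gbp3 differed by 1.17 within set 1 and -0.02 within set 3, and the p53KO arrays read 4.11, 4.39, 5.03, 5.05 and 4.76. Its call against untreated DKO was lost without untreated DKO replicate 3 or DEN DKO replicate 1, 2 or 3 (0.56 to 0.74), and that against DEN WT without DEN WT replicate 1 or 2 or DEN DKO replicate 1, 2 or 3 (0.52 to 0.76). Irgm1 was not called and lay between 5.28 and 6.56.

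Cxcl9 and Cxcl10 encode ligands of the receptor Cxcr3, which guides T and NK cells, and each was called in other comparisons. Cxcl9 read 5.07, 5.50 and 5.51 in untreated DKO, 4.50, 5.58, 5.93, 5.85 and 5.82 in DEN WT, 4.81, 5.60, 6.35, 5.83 and 6.15 in DEN p53KO and 6.81, 6.61, 6.73, 5.82 and 5.63 in DEN DKO. The 3 DEN DKO arrays of set 1 were above every array of the other 3 groups, and the 2 of set 3 were not. DEN DKO exceeded untreated DKO by 0.98 (SE 0.32, adjusted p = 0.0314) and DEN WT by 1.11 (SE 0.30, adjusted p = 0.018). DKO minus p53KO was 1.51 within set 1 and -0.39 within set 3. The first call of Cxcl9 was lost without untreated DKO replicate 1, 2 or 3 or DEN DKO replicate 1, 2 or 3 (0.81 to 1.08), and also without the set term and with arrays centred on their median, and the second without DEN WT replicate 1 or DEN DKO replicate 1, 2 or 3 (0.85 to 1.35), and also without the set term and without set 2. Cxcl10 read 4.19, 4.13 and 4.69 in untreated WT, 4.70, 4.96 and 5.01 in untreated DKO and 4.61, 5.05, 4.75, 6.97 and 5.27 in DEN WT. After DEN the arrays of p53KO read 5.71, 5.44, 6.21, 5.99 and 5.50, those of RbKO 4.79, 4.48, 4.82 and 4.96 and those of DKO 5.40, 5.48, 5.54, 5.08 and 5.61. DEN WT replicate 4, of set 2, stood far above the other 4, and the p53KO group was the highest by its median. p53KO minus WT was 0.70 (SE 0.27, adjusted p = 0.18), and it was called within set 1 at 0.77 (adjusted p = 0.00561). DEN raised Cxcl10 in WT by 0.94 (SE 0.26, adjusted p = 0.0367). That call was lost without untreated WT replicate 1, 2 or 3 or DEN WT replicate 2 (0.62 to 1.09), and also without the set term, with the set as a random block, without set 2, with Xist as a covariate and in a fit of the compared groups alone. DKO minus RbKO after DEN, whose arrays did not overlap, was 0.82 (SE 0.26, adjusted p = 0.127).

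Of the remaining members, Ifi27l2a, a small mitochondrial interferon-induced protein, was called higher in DEN DKO than in each other genotype after DEN and than in untreated DKO. It read 4.20, 4.13 and 4.61 in untreated WT, 4.84, 4.66 and 4.19 in untreated DKO and 4.65, 4.30, 5.44, 4.09 and 3.95 in DEN WT. After DEN the arrays of p53KO read 4.92, 4.48, 4.92, 4.80 and 4.47, those of RbKO 4.37, 4.66, 4.66 and 4.13 and those of DKO 6.11, 5.82, 6.09, 5.61 and 4.71. The first 4 DEN DKO arrays were above all 20 other arrays, and the fifth, of set 3, was not. DEN raised it in DKO by 1.26 (SE 0.27, adjusted p = 0.00134), and in WT the difference was 0.20 (SE 0.25, adjusted p = 0.776). DEN DKO exceeded DEN WT by 1.20 (SE 0.25, adjusted p = 0.00304), p53KO by 0.87 (SE 0.22, adjusted p = 0.041) and RbKO by 1.28 (SE 0.26, adjusted p = 0.012). The calls against untreated DKO and DEN WT held without any 1 array (1.08 to 1.40 and 1.08 to 1.48) and under all 10 alternatives. The p53KO contrast was 1.31 within set 1 and 0.43 within set 3. It was lost without DEN p53KO replicate 1, 2 or 5 or DEN DKO replicate 1, 2, 3 or 4 (0.68 to 1.14), and also without the set term, with the set as a random block, with arrays centred on their median and in a fit of the compared groups alone. The RbKO contrast was lost without DEN RbKO replicate 1 or DEN DKO replicate 1 (1.18 to 1.39), and also without the set term.

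Parp14, a mono-ADP-ribosyltransferase, read 5.72, 5.88 and 5.40 in untreated DKO and 6.69, 6.47, 6.57, 6.42 and 6.39 in DEN DKO, with no overlap, and DEN raised it by 0.80 (SE 0.18, adjusted p = 0.00228), whichever array was left out (0.67 to 0.91). The 5 DEN DKO arrays were also above all DEN WT arrays, at 5.65, 5.98, 6.36, 6.24 and 5.87, but that difference was not called, at 0.40 (SE 0.17, adjusted p = 0.131). Ifi35, a partner of Nmi, went the other way. It read 6.19, 5.93, 5.84, 5.22 and 4.97 in DEN WT, 5.60, 5.15, 4.98, 4.82 and 4.75 in DEN p53KO and 5.51, 5.13, 5.50, 5.01 and 4.91 in DEN DKO. In set 1 the WT arrays were above all p53KO and DKO arrays, and the set 2 arrays of WT were lower, as was the set 2 array of untreated WT, at 4.59 against 5.57 and 5.70. p53KO minus WT was -0.64 (SE 0.14, adjusted p = 0.0228) and DKO minus WT was -0.58 (SE 0.13, adjusted p = 0.0047). Within set 1 they were -0.61 and -0.61. The p53KO call of Ifi35 was lost without DEN p53KO replicate 2 (-0.77 to -0.53), and also without the set term and in a fit of the compared groups alone. The DKO call held whichever array was left out (-0.63 to -0.48), and it was lost without the set term. Rtp4, Xaf1 and Parp9 were not called. Rtp4, a chaperone of receptors, read 6.14, 6.49, 7.31, 7.28 and 6.56 in DEN WT and 7.35, 7.15, 7.44, 6.24 and 6.93 in DEN DKO, which overlapped.

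Over all comparisons there were 31 calls of 17 members. Of these calls, 7 held whichever array was left out, 9 held under all 10 alternatives, and 6 held under both: DEN in DKO for Ifi27l2a, Ifit3, Parp14 and Ifit1, and DKO against WT after DEN for Ifi27l2a and Iigp1. Among the 10 alternatives, dropping the filter and averaging a gene's probe sets left the values of the called members unchanged, so they test these calls little. No call reversed its sign under any alternative or left-out array.

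Set 3 was the only other set with both DKO and p53KO, and the median member difference there was 0.09 against 0.50 in set 1. The 13 members called within set 1 include Ifit3, Cxcl9, Gbp3, Zbp1 and Ifi27l2a, whose set 1 differences were 2.09, 1.51, 1.17, 1.05 and 1.31. In set 3 the same genes differed by 0.73, -0.39, -0.02, 0.26 and 0.43. The difference between the sets was not tested.

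**Figure D4:**
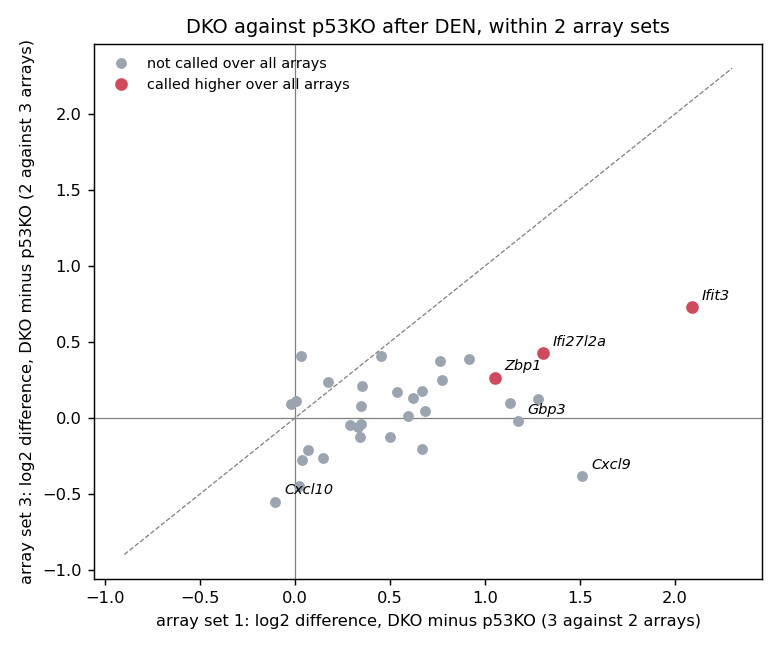
Log2 difference of DKO minus p53KO after DEN for each of the 33 members within array set 1 (x axis, 3 against 2 arrays) and within array set 3 (y axis, 2 against 3 arrays), with the line of equal values dashed and the 3 members called over all arrays in red. Most points lie below the line, with a median of 0.50 in set 1 and 0.09 in set 3, and Cxcl9 is above 0 in set 1 and below 0 in set 3.

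The pathway around these genes was read from 5 lists that hold none of the members. Of the 19 interferon genes listed, 10 were tested and 0 were called in any of the 9 comparisons by limma. Between 0 and 2 of them had an unadjusted p under 0.05 in a comparison, and Ifnb1, Ifna4, Ifna11, Ifna13 and Ifne were dim. Of the receptor and kinase genes, 9 of 10 were tested. Ifngr2, a chain of the interferon gamma receptor, rose with DEN in WT by 0.64 (SE 0.14, adjusted p = 0.00798), and its response in DKO minus that in WT was -1.01 (SE 0.20, adjusted p = 0.00275). Ifnar1, a chain of the type I receptor, and Jak1 fell with DEN in DKO, with differences of -0.66 and -0.50, as 2 of 9 lower and 0 higher, beside the 16.5% of all genes called lower. Against WT after DEN, where 9.14% of all genes were lower in DKO, Ifngr2 and Jak1 were lower, at -0.55 and -0.43, again 2 of 9. In RbKO against WT after DEN, Jak2 was higher at 0.50 and Ifngr2 lower at -0.40, with 0.35 and -0.29 within set 1. There 5.23% of all genes were higher and 6.13% lower. Il10rb was lower in the DEN response of DKO minus that of WT, at -0.81 (-0.48 within set 1), where 8.54% of all genes were lower.

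Of the genes that sense nucleic acid upstream of interferon, 12 of 13 were tested. With DEN in DKO the adaptors Mavs and Myd88 fell, with differences of -0.99 and -0.88, and the sensors Tlr3 and Cgas rose, by 0.47 and 0.50, so 2 of 12 were higher and 2 lower, beside 4.49% and 16.5% of all genes. With DEN in WT, 0 of 12 were called, and 1 had an unadjusted p under 0.05. After DEN, the kinase gene Ikbke was lower than in WT in p53KO, RbKO and DKO, at -0.63, -0.42 and -0.46. Irf3 was also lower in RbKO, at -0.49, and Myd88 in DKO, at -0.72. Within set 1, Ikbke differed by -0.42, -0.30 and -0.40, Irf3 by -0.13 and Myd88 by -0.41. Of all genes, 1.07%, 6.13% and 9.14% were lower in p53KO, RbKO and DKO. The DEN response of Myd88 in DKO minus that in WT was -1.10 (-0.59 within set 1), where 8.54% of all genes were lower. Of the 10 genes of feedback and RNA or DNA clearance, all tested, Ptpn6, Rnaseh2a and Pias1 fell with DEN in DKO, with differences of -0.39, -0.52 and -0.42, which is 3 of 10 lower and 0 higher beside the same shares. Rnaseh2b, a subunit of the enzyme that removes RNA from DNA, was the list's only gene called higher, in untreated DKO at 0.50 (SE 0.12, adjusted p = 0.0454) and in RbKO against WT at 0.31 (SE 0.10, adjusted p = 0.046).

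A further list of 40 interferon-induced genes that are no members had 31 tested, with calls in both directions. With DEN in DKO, 6 of 31 rose, among them Ifitm3, which blocks viral entry, by 0.71 (SE 0.11, adjusted p = 7.28e-05), the helicase Ddx60 by 0.84 (SE 0.19, adjusted p = 0.00255), and Phf11d by 0.67 (SE 0.17, adjusted p = 0.00475). On the other side 5 fell, among them Ifitm2 at -0.75 and the galectin Lgals9 at -0.86, and the median over the list was 0.00674. Beside these counts, 4.49% of all genes were called higher and 16.5% lower. For DKO against WT after DEN, 4 of 31 were higher (Ddx60, Trim30a, Herc6 and Phf11d, at 0.80, 0.82, 0.84 and 0.53) and 2 lower (Lgals9 and Ifi30, at -0.76 and -0.48), with a median of 0.03. Of all genes, 2.69% were higher and 9.14% lower there. For DKO against p53KO, 4 of 31 were higher, Trim30a at 1.10, Ifi203 at 1.08, Ddx60 at 0.71 and Phf11d at 0.56. Lgals9 was lower there at -0.58. In the same order, these genes differed by 1.46, 1.36, 1.20, 0.68 and -0.14 within set 1. The shares of all genes were 0.357% higher and 1.51% lower. For the DEN response of DKO minus that of WT, 2 of 31 were higher, Ddx60 and Ifitm3, the latter at 0.57, and 7 were lower, among them Ifi30 at -0.82 and Lgals3bp at -0.98. Over all genes these shares were 1.36% and 8.54%. For RbKO against WT, Herc6 and Ddx60 were higher, at 0.84 and 0.55, and 4 were lower (Ifi30, Ifitm1, Helz2 and Lgals3bp). In that comparison 5.23% of all genes were higher and 6.13% lower. For p53KO against WT, 0 were higher and Lgals3bp was lower at -0.78, beside 0.708% and 1.07% of all genes. There 25 of the 31 differences were below 0. For untreated DKO against WT and for DKO against RbKO, 0 of 31 were called by limma, with 7 and 4 at an unadjusted p under 0.05. For DEN in WT, 1 of 31 was called, Ifi30, a thiol reductase of antigen processing, higher at 0.53, beside 2.08% of all genes.

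Markers of other liver cells were called in each comparison in which members were called except DKO against p53KO, and in whole liver fewer cells of a type and less RNA per cell cannot be told apart. With DEN in DKO, 16.5% of all genes were called lower and 4.49% higher, and every marker count for that comparison below stands beside these shares. There 7 of 8 endothelial markers fell (Stab2 at -1.26). Their summed linear signal was 958.4 to 1005 in untreated and 491.1 to 590.8 in DEN DKO. Against DEN WT, where the sum was 725.6 to 955.6, 5 of 8 were lower in DKO, beside 9.14% of all genes. Against RbKO after DEN, Tek, Pecam1 and Emcn, 3 of 8, were lower in DKO, as was the neutrophil marker Ltf, beside 0.884% of all genes. With DEN in WT, the endothelial Stab2 (-0.90), the hepatocyte factor Hnf4a (-0.76) and the lymphocyte gene Gzma (-0.79) fell and Ltf (1.15) rose. Of all genes, 1.91% were called lower and 2.08% higher there. In RbKO against WT, Clec4g, Clec4f, Hnf4a and Acta2 were lower, from -0.57 to -0.51, and Lrat was higher at 0.64. The shares of all genes were 6.13% lower and 5.23% higher. Of 8 stellate cell and matrix markers, 5 fell with DEN in DKO (Acta2 at -1.58). After DEN, 2 were lower in DKO than in WT (9.14% of all genes) and 2 were lower in p53KO than in WT (1.07%). The sum was 3217 to 3370 in untreated DKO, 1905 to 2800 in DEN WT and 1621 to 1943 in DEN DKO. Of 7 hepatocyte markers, Alb and Serpina1c rose and Hnf4a and Apoa1 fell with DEN in DKO, and the sum was 21740 to 24530 in untreated and 21810 to 23090 in DEN DKO. For DKO against WT after DEN, Hnf4a (-0.66), Ltf (-1.13) and the erythroid Alas2 (-0.63) were lower, beside 9.14% of all genes. With DEN in DKO, both erythroid markers tested fell, Alas2 at -0.63 and Slc4a1 at -0.52. Tcf4 of the plasmacytoid dendritic cell list (-0.52) and the B cell marker Cd79b (-0.44) fell there too. Of 12 macrophage and Kupffer cell markers, 4 fell with DEN in DKO (Lyz2 at -1.11), 0 were called for DKO against WT after DEN, with 5 at an unadjusted p under 0.05, and the sum was 939.2 to 1599 in DEN WT and 901.2 to 1280 in DEN DKO. For DKO against p53KO, 0 markers of any list were called by limma over all arrays, with 0 to 3 of a list at an unadjusted p under 0.05. Within set 1, 4 of the 12 macrophage markers were higher in DKO than in p53KO after DEN (2.37% of all genes) and 6 were lower in p53KO than in WT (4.36%). Of 8 neutrophil markers tested, 3 were higher in untreated DKO than in untreated WT (Ngp at 3.01), beside 0.865% of all genes, and 5 fell with DEN in DKO. The sum was 285.1 to 339.3 in untreated WT, 1377 to 2603 in untreated DKO and 380.1 to 1357 in DEN DKO. Of 8 T and NK cell markers tested, Cd3d and Cd3g fell with DEN in DKO and 0 were called for DKO against WT after DEN, and the sum was 159.2 to 189.9 in DEN WT and 154.6 to 206.6 in DEN DKO. The NK cell markers Ncr1, Klrb1c and Klrk1 and the B cell markers Cd79a and Ms4a1 were dim. Of the plasmacytoid dendritic cell list, 4 were tested, and 1 of them, Bst2, is itself a member. Without Bst2, the summed signal of its 4 measured genes was 109.7 to 131.8 in DEN WT and 98.38 to 142.2 in DEN p53KO, which overlapped. The part of these cells in the members' values was not tested.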

How the data were processed

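Liver RNA, amplified (WT-Ovation Pico) and biotin-labelled, was hybridised to Affymetrix Mouse Gene 1.0 ST arrays, per the labels' protocols. The authors deposited log2 values after RMA in Affymetrix Expression Console 1.1, per the submitters' processing notes, for 35555 probe sets on 25 arrays. If this was a single run over the 25 arrays is not given in the sources used here, and no background or detection values were used. The platform table gave 21789 probe sets 1 gene symbol and 1620 several, and did not list 12146. A gene took its probe set with the highest mean, and genes under the 20th percentile (3.329 log2), 3987 of 19938, were left out. limma 3.58.1 (R 4.3.3, statmod 1.5.0) fitted 6 group means and the array set to 15951 genes, two-sided, with Benjamini-Hochberg adjustment over all of them. The fit was tested on simulated data. Sets come from the array names and the order of deposit. Replicate numbers follow the order of deposit and pair nothing. Figures used matplotlib 3.10.9. Promoters are those of RefSeq. The members, lists and markers were chosen with earlier results of these data known. Members called in a comparison are given array by array (up to 4 per role), others by range, and Irf1, Oasl2 and Rtp4 were added after their values were seen. Alternatives left out the set term, set 2, all but set 1, the groups not compared, the filter or each array, or used a random block for the set, Xist as a covariate standing for the unlabelled sex, arrays centred on their median, the 40th percentile as the filter, or the mean of a gene's probe sets. The p53 gene itself is not analysed here.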

Additional observations from a re-analysis of the deposited data

Results flagged for a closer look

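In groups of 4 or 5 arrays, a member was marked where its highest or lowest array lay far from the others by Dixon's criterion at the 95% level. Of 140 groups over 35 members, 7 (5%) were marked, and chance alone marks about 1 in 20. Cxcl10 read 6.97 in DEN WT replicate 4, an array of set 2, where the other 4 arrays read up to 5.27. Cxcl9 read 4.50 in DEN WT replicate 1, where the others read at least 5.58. Rsad2 was low in DEN DKO replicate 5, at 4.45, and Irgm1 was low in DEN p53KO replicate 5, at 5.28. In DEN RbKO, Irf1 was high in replicate 3 at 5.00, Dhx58 was high in replicate 2 at 3.49, and Ifi35 was low in replicate 4, of set 2, at 4.89.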

How the results depend on the processing

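Of the 31 calls of members, 18 were lost without the set term, 13 in a fit of the compared groups alone, 12 without set 2, 7 with Xist as a covariate, 4 in set 1 alone, 4 with centred arrays and 3 with the set as a random block, and 0 changed sign. Dropping the filter or averaging a gene's probe sets moved no count by over 1.5 times. Neither could move much, because both left the values of the called members as they were. Of the members with a value, only Irf1, which was not called, had more than 1 probe set. Arrays carry no counts, so their number limits the precision, and Rb1 and the dim members allow no statement on presence. No paired analysis was possible because the labels give no replicate numbers. The causes of the following moves were not tested. The shares of all genes called under these settings are not given beside the counts below. These counts are therefore no result about the members.

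Without the set term, 0 members were higher for DEN in WT, for RbKO against WT and for DKO against RbKO, and 1 for DKO against p53KO. There 0 were lower for RbKO against WT and for DKO against WT, and 1 for p53KO against WT. With the set as a random block, 1 was higher for DKO against RbKO. In set 1 alone, 16 were higher for DEN in DKO, 2 for the difference of the responses, 1 for untreated DKO against WT, 11 for DKO against WT after DEN, 13 for DKO against p53KO, 8 for DKO against RbKO, 1 for RbKO and 1 for p53KO against WT, and 0 were lower for RbKO. The median was 0.50 for DKO against p53KO and -0.24 for p53KO against WT in set 1 alone. Without set 2, 2 were higher for DEN in WT, 1 for untreated DKO against WT, 6 for DKO against p53KO, 1 for DKO against RbKO, 0 for RbKO and 1 for p53KO against WT. There 2 were lower for DEN in DKO, 1 for the difference of the responses, 2 for DKO against WT, 0 for RbKO and 1 for p53KO. In a fit of the compared groups alone, 0 were higher for DEN in WT, 1 for the difference of the responses, 3 for untreated DKO against WT, 6 for DKO against RbKO and 1 for RbKO against WT, and 0 were lower for RbKO and for p53KO, whose median was -0.24. With centred arrays, 5 were higher and 3 lower for DEN in DKO and 1 lower for the difference of the responses. With the 40th percentile filter, 1 was higher for the difference of the responses. With Xist as a covariate, 1 was higher for DEN in WT and 0 lower for DEN in DKO.

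Leaving out each array in turn, the count of members higher ran from 0 to 5 for DEN in WT, 4 to 9 for DEN in DKO, 0 to 2 for the difference of the responses, 0 to 1 for p53KO against WT, 0 to 2 for RbKO against WT, 2 to 8 for DKO against WT after DEN, 0 to 4 for DKO against p53KO and 0 to 2 for DKO against RbKO. The count lower ran from 0 to 1 for DEN in WT, for DEN in DKO and for RbKO against WT, and from 0 to 2 for p53KO against WT.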
